A study of Homo sapiens with 15 samples.

Results

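The genes described here are 39 genes of glycolysis and the hypoxia response, taken by symbol from a list of names. All 39 were found among the 15510 gene rows of the count table, and all 39 passed the filter on low counts, which kept 13599 genes. Their mRNA was measured by poly(A) sequencing in 15 libraries, 3 from each of 5 human cell lines. The base line is ARPE19, a long-established line of human retinal pigment epithelium, labelled as untransfected and not transformed. The other 4 lines were made from it, and all 4 are labelled with 1 plasmid for hTERT (telomerase) and p53DD (a dominant negative p53 fragment) and another for cyclin D1 and CDK4R24C (a CDK4 mutant). RasV12 adds H-RasV12, an active RAS, and is labelled transformed. MekDD adds MEK-DD, an active MEK kinase, and is labelled weakly transformed. AKTmyr adds myr-HA-Akt, an AKT kinase held at the membrane, and is labelled transformed. T53D4 has no further plasmid and is labelled not transformed. Every line was grown attached in DMEM/F12 medium with serum, with no low-oxygen treatment in the labels, and there is 1 line per construct. The 3 libraries of a line carry the replicate numbers 1, 2 and 3, each from its own thawed vial, and lines were compared within the same number.

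Glycolysis breaks glucose down to pyruvate in the cytosol. Glucose enters through SLC2A transporters, is trapped by hexokinase, committed by phosphofructokinase, and leaves as lactate through monocarboxylate transporters when lactate dehydrogenase reduces the pyruvate. The hypoxia-inducible factors are pairs of an alpha subunit, HIF1A or EPAS1, and a partner, ARNT. In oxygen, EGLN prolyl hydroxylases mark the alpha subunit for destruction through VHL, and when oxygen is short the factor binds short ACGTG or GCGTG motifs and raises transcription of most glycolytic enzymes together with CA9, VEGFA, EGLN3 and BNIP3. Growth factor signalling through PI3K and AKT is a textbook inducer of glucose uptake and glycolysis as well. Retinal pigment epithelium is known for sparing glucose for the photoreceptors and for using lactate.

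Reads on genes, given in units of 1000000, ranged from 20.63 to 46.55 per library, so the 39 genes were counted deeply apart from EGLN3 and ANKRD37. Reads on the H-RasV12, MEK-DD, AKT, hTERT and p53DD constructs were highest in the lines labelled with them, but the cyclin D1 construct stood at 270 ± 57.6 CPM in MekDD and 146 ± 32.1 CPM in T53D4, against 193 ± 41.6 CPM in ARPE19 (SD, n = 3 each). CPM is the count per 1000000 reads after trimmed-mean (TMM) scaling. The CDK4 construct was likewise low in both lines, with 142 ± 13.7 CPM in MekDD and 92.2 ± 11.8 CPM in T53D4, against 70.7 ± 12.1 CPM in ARPE19. On the cyclin D1 and CDK4 constructs RasV12 had 2350 ± 121 and 2380 ± 23.1 CPM, and AKTmyr 858 ± 133 and 1006 ± 90.2 CPM. RasV12 and AKTmyr thus differ from T53D4 in these constructs as well as in their own, and the parts of the constructs in any difference below cannot be told apart. MekDD and T53D4 below therefore mean the libraries labelled so. Of 16 retinal pigment epithelium markers, 11 or 12 reached 1 CPM in each line, led by KRT8, KRT18 and PAX6, while RPE65, TYR and SLC16A8 stayed under 1 CPM in every line. Of 14 markers of other cell types, CD68 reached 1 CPM in every line and ACTC1 in AKTmyr alone. The summed level of these markers ran from 284 to 346 CPM in RasV12 libraries, 132 to 194 CPM in MekDD libraries, 137 to 177 CPM in AKTmyr libraries, 86 to 183 CPM in T53D4 libraries and 151 to 178 CPM in ARPE19 libraries.

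The 39 genes stood highest as a group in AKTmyr. The median over the 39 genes of log2 CPM minus the gene's own mean was 0.58, 0.50 and 0.85 in AKTmyr replicates 1, 2 and 3, against 0.10, -0.67 and -0.20 in T53D4. RasV12 stood at 0.00, -0.54 and -0.45, MekDD at 0.31, -0.68 and 0.01, and ARPE19 at 0.33, 0.07 and 0.15. Replicate 2 was the lowest of its line everywhere, and the AKTmyr libraries lay above every other library. Over all genes with reads in every library the same median stayed between -0.01 and 0.03.

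**Figure D1:**
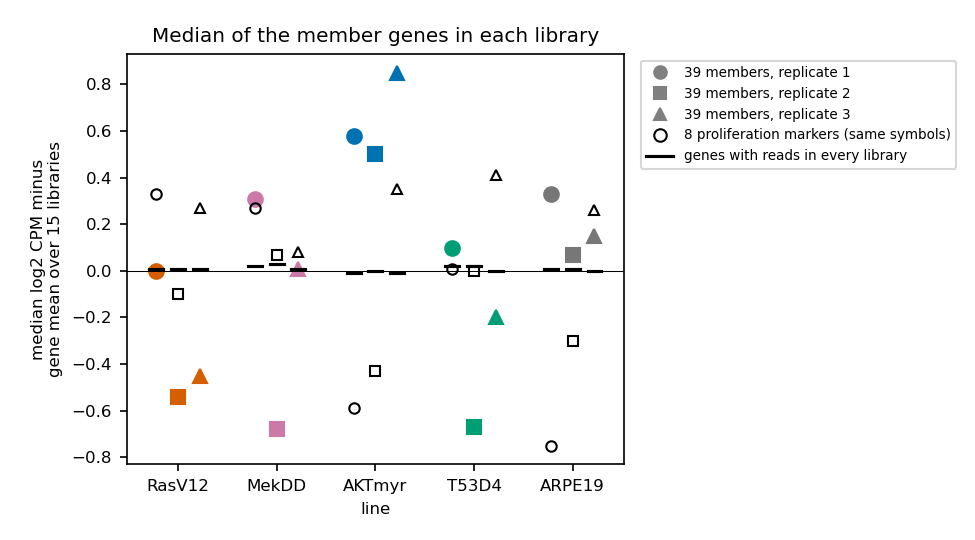
Median log2 CPM of the 39 genes in each library, as the difference from each gene's mean over 15 libraries (filled symbols, shape by replicate number), with 8 proliferation markers (open symbols) and all genes with reads in every library (bars). The 3 AKTmyr libraries sit at 0.50 to 0.85, above all others, and replicate 2 is lowest within each line.

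Most of the 39 genes differed by replicate number when all lines were tested together. The median over the 39 genes was highest in number 3 in AKTmyr and in number 1 in every other line. In a joint test of the number in the same model, 29 of the 39 genes differed between numbers, where 30.5% of all genes tested did (quasi-likelihood F-test of edgeR at a p under 0.05 after Benjamini-Hochberg, BH, adjustment). Of those 29, 25 had a lower mean in number 2 than in number 1, and the direction was not counted over all genes. CA9, a membrane carbonic anhydrase, varied most: MekDD libraries had 276, 18.7 and 143 CPM and T53D4 libraries 229, 17.7 and 60.9 CPM. HIF1A did not differ between numbers (edgeR BH-adjusted p = 0.973). Depth also differed by number, at 36.95 to 46.55 in number 2 and 20.63 to 24.05 in number 3 in the same unit, and its part in the pattern was not tested. Fold changes and adjusted p-values below come from a model with the line and the replicate number unless stated. The count called without the number is given for each comparison, and adjusted p-values without it for some genes only.

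Most of the 39 genes were higher in AKTmyr than in T53D4 and none was called lower. Glucose entry (SLC2A1), the regulators of phosphofructokinase PFKFB3 and PFKFB4, lower glycolysis (GAPDH, PGK1), pH control (CA9, CA12), oxygen sensing (EGLN3) and secreted targets (VEGFA, ADM) were all higher. The genes called were 31 of 39 higher and 0 lower, where 16.9% of all 13599 genes were called higher and 17.9% lower (edgeR F-test, BH-adjusted p under 0.05). The median log2 fold change was 0.97 over the 39 genes and -0.01 over all genes. In all 3 same-number pairs 33 of 39 were higher in AKTmyr, a count that was not made over all genes. The largest were EGLN3, CA9, CA12, VEGFA, ALDOC and NDRG1, between 1.81 and 3.04 on the log2 scale. Without the replicate number in the model 17 of the 39 were called, all higher, where 20.1% of all genes were called either way. Without replicate 2 of every line 15 were called, all higher, where 814 of all genes were higher and 823 lower. The median difference was 0.37, 1.24 and 0.98 within numbers 1, 2 and 3. Of 8 proliferation markers 3 were lower (MCM2, MCM5 and CCNE2), 0 higher and 5 not called, and their part in the result was not tested. In bulk libraries a change in the share of cells that express a gene and a change in its RNA per cell cannot be told apart.

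**Figure D2:**
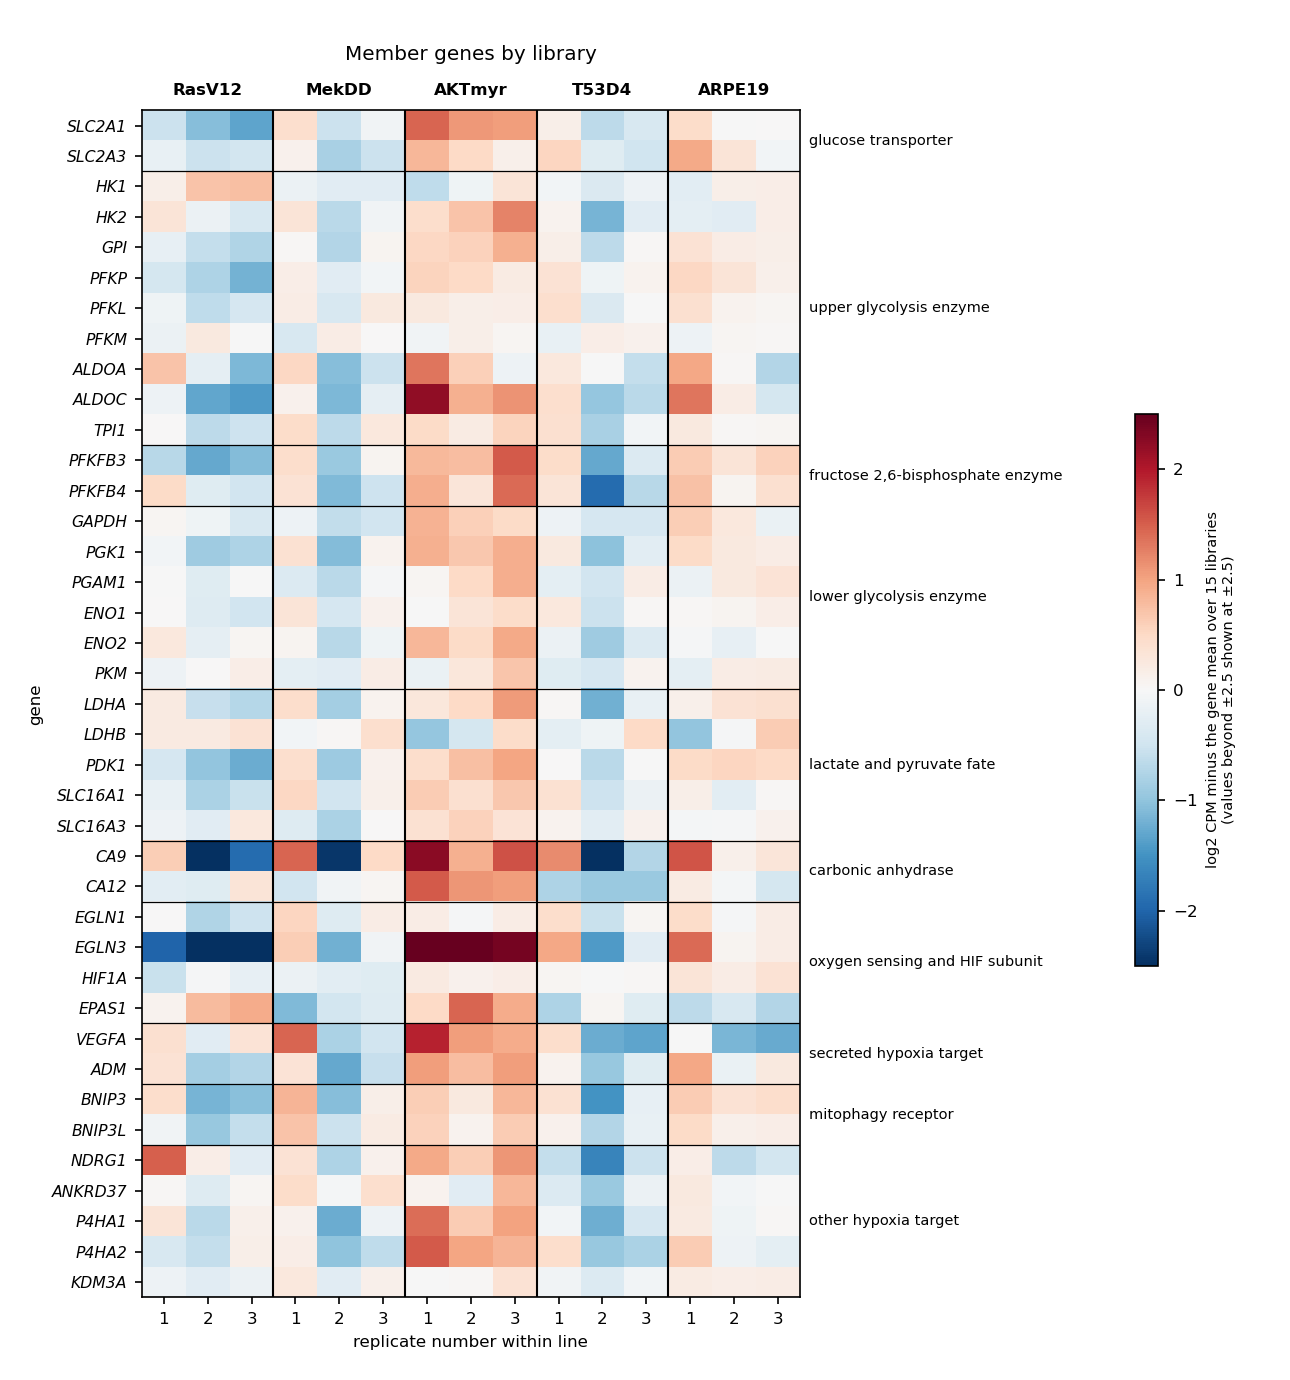
Log2 CPM of each gene in each library minus the gene's mean over 15 libraries, with genes grouped by role and lines in the order RasV12, MekDD, AKTmyr, T53D4, ARPE19. AKTmyr columns are red for most genes, EGLN3 is the row with the widest contrast, and replicate 2 columns are mostly blue in MekDD and T53D4.

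Glucose transporters were both higher in AKTmyr. SLC2A1 (GLUT1), the main basal glucose carrier, had 2116, 1636 and 1601 CPM in AKTmyr, against 864, 490 and 588 CPM in T53D4. It had 538, 370 and 313 CPM in RasV12, 1040, 534 and 732 CPM in MekDD, and 1062, 773 and 780 CPM in ARPE19. The AKTmyr libraries lay above all others, RasV12 replicates 2 and 3 below all others, and RasV12 replicate 1 inside the T53D4 and MekDD ranges. SLC2A1 rose by log2 1.49 (SE 0.13) in AKTmyr over T53D4, with a BH-adjusted p of 1.8e-05 by edgeR. SLC2A3 (GLUT3), a high-affinity carrier, rose by log2 0.57 (SE 0.15, edgeR adjusted p = 0.0115), with AKTmyr at 33.9 to 55.3 CPM overlapping T53D4 at 22.1 to 45 CPM. Per kilobase of exon, SLC2A1 made up 98.2% ± 0.215 of the pair in AKTmyr and 96.7% ± 0.549 in T53D4 (SD, n = 3 each).

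Upper glycolysis, from hexokinase to triose phosphate, had 5 of 9 enzymes higher in AKTmyr and 4 not called. HK2, the inducible hexokinase, had 115, 139 and 201 CPM in AKTmyr and 91.2, 38 and 70.4 CPM in T53D4, with no overlap (log2 1.26, SE 0.28, edgeR adjusted p = 0.00472). HK1, the constitutive hexokinase, had 222, 320 and 432 CPM in AKTmyr and 327, 267 and 314 CPM in T53D4 (log2 0.06, SE 0.19, edgeR adjusted p = 0.831). The pair therefore divided, and HK2 made up 32.9% ± 2.03 of hexokinase reads per kilobase in AKTmyr and 18.1% ± 4.84 in T53D4 (SD, n = 3 each). ALDOC, the brain-type aldolase, had 246, 97.7 and 115 CPM in AKTmyr, against 70.5, 27.1 and 33.3 CPM in T53D4. Elsewhere it had 48.7, 21.6 and 19.8 CPM in RasV12, 56.9, 24.2 and 45.2 CPM in MekDD, and 133, 60.1 and 39.1 CPM in ARPE19. Its lowest AKTmyr library stood above the highest T53D4 library, and it rose by log2 1.81 (SE 0.22, edgeR adjusted p = 0.000134). GPI, TPI1 and ALDOA also rose, by log2 0.57 to 0.83. The 3 phosphofructokinase genes PFKP, PFKL and PFKM had log2 values of 0.31, 0.18 and 0.01 and none was called. ALDOA shares 43.3% of its exon bases with a neighbouring gene on its strand, so its count is uncertain.

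PFKFB3 and PFKFB4 make fructose 2,6-bisphosphate, the activator of phosphofructokinase, and both were higher in AKTmyr. PFKFB3 had 178, 175 and 293 CPM in AKTmyr and 140, 41.8 and 80.1 CPM in T53D4, which did not overlap (log2 1.43, SE 0.28, edgeR adjusted p = 0.00257). Its other levels were 62.8, 41.7 and 48 CPM in RasV12, 139, 53.8 and 107 CPM in MekDD, and 159, 127 and 151 CPM in ARPE19. PFKFB4 had 61.9, 40.6 and 87.9 CPM in AKTmyr and 41.1, 8.63 and 20.3 CPM in T53D4 (log2 1.63, SE 0.31, edgeR adjusted p = 0.00227), with 1 T53D4 library inside the AKTmyr range.

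Lower glycolysis, from glyceraldehyde phosphate to pyruvate, had 5 of 6 enzymes higher in AKTmyr. GAPDH, the oxidising step, had 11471, 9521 and 8744 CPM in AKTmyr, against 5768, 4685 and 4679 CPM in T53D4. Elsewhere it had 6476, 5841 and 4771 CPM in RasV12, 5714, 4107 and 4493 CPM in MekDD, and 9580, 7489 and 5628 CPM in ARPE19. It was the highest of the 39 genes per length in every line, at 4137 ± 586 RPKM (reads per kilobase of exon per 1000000 reads) in AKTmyr and 2105 ± 262 RPKM in T53D4 (SD, n = 3 each). GAPDH rose by log2 0.97 (SE 0.13, edgeR adjusted p = 0.000188) in AKTmyr. ENO2 rose by log2 1.21 (SE 0.12, edgeR adjusted p = 3.4e-05), whereas ENO1, the abundant enolase, had 3817, 4813 and 5291 CPM in AKTmyr and 4608, 2639 and 3888 CPM in T53D4 and was not called. PGK1, PGAM1 and PKM rose by log2 1.18, 0.67 and 0.48. GAPDH, PGK1, PGAM1 and ENO1 have processed pseudogenes or near copies, and how reads that match several places were counted is not given in the sources used here.

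Of 5 genes for the fate of pyruvate and lactate, 4 rose in AKTmyr. LDHA, which makes lactate, had 3215, 3718 and 5468 CPM in AKTmyr and 2684, 1140 and 2320 CPM in T53D4 (log2 1.09, SE 0.31, edgeR adjusted p = 0.0182). PDK1, a kinase that shuts pyruvate dehydrogenase, had 135, 167 and 197 CPM in AKTmyr, against 99.3, 62.3 and 97.7 CPM in T53D4, with no overlap (log2 0.99, SE 0.26, edgeR adjusted p = 0.0127). SLC16A1 (MCT1) and SLC16A3 (MCT4), the lactate carriers, rose by log2 0.66 (SE 0.13, edgeR adjusted p = 0.00307) and 0.48 (SE 0.16, edgeR adjusted p = 0.0342). LDHB, the isozyme that favours lactate use, had 13.9, 20.1 and 37.6 CPM in AKTmyr and 23.2, 25.5 and 38.5 CPM in T53D4. Its log2 value was -0.35 (SE 0.23, edgeR adjusted p = 0.245), the only negative one of the 39, and 33.4% of its exon bases are shared with another gene on its strand.

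CA9 and CA12, membrane carbonic anhydrases that handle acid outside the cell, were higher in AKTmyr but behaved differently across replicates. CA9 had 480, 187 and 306 CPM in AKTmyr, which overlapped T53D4 at 229, 17.7 and 60.9 CPM. The same-number differences were 1.07, 3.39 and 2.33 on the log2 scale, and the fitted rise was 2.31 (SE 0.52, edgeR adjusted p = 0.00533, and 0.275 without the replicate number). CA12 had 76.7, 56.5 and 54.6 CPM in AKTmyr and 15.5, 13.8 and 13.8 CPM in T53D4, with all AKTmyr libraries far above, and rose by 2.12 (SE 0.22, edgeR adjusted p = 4.7e-05, and 6.1e-05 without the number). CA12 was not called between replicate numbers (edgeR adjusted p = 0.805), whereas CA9 was (edgeR adjusted p = 0.00212). CA9 shares 36.1% of its exon bases with ARHGEF39 on the other strand, and whether counting used strand is not given in the sources used here.

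Among the oxygen sensors and HIF subunits, EGLN3 and EPAS1 rose in AKTmyr while EGLN1 and HIF1A were not called. EGLN3, a HIF prolyl hydroxylase that is itself a hypoxia target, had 39.2, 22.6 and 19.3 CPM in AKTmyr and 7.19, 1.37 and 3 CPM in T53D4. It had 0.913, 0.26 and 0.495 CPM in RasV12, 5.64, 1.6 and 3.47 CPM in MekDD, and 9.73, 3.87 and 4.16 CPM in ARPE19. The AKTmyr libraries lay above all others and the RasV12 libraries below all others, a rise of log2 3.04 (SE 0.27, edgeR adjusted p = 1.7e-05) in AKTmyr over T53D4. EGLN1, the main oxygen sensor, had 36.4, 31.2 and 36.4 CPM in AKTmyr and 43.1, 21.7 and 32.9 CPM in T53D4 (log2 0.15, SE 0.13, edgeR adjusted p = 0.398). It shares 55.8% of its exon bases with another gene on its strand. EPAS1 (HIF-2 alpha) had 311, 600 and 417 CPM in AKTmyr and 128, 226 and 178 CPM in T53D4, and rose by log2 1.31 (SE 0.17, edgeR adjusted p = 0.000181). HIF1A had 1099, 1014 and 1055 CPM in AKTmyr and 967, 934 and 952 CPM in T53D4, with AKTmyr the higher in each pair but a log2 difference of 0.15 (SE 0.13, edgeR adjusted p = 0.377). HIF protein, which oxygen controls after translation, was not measured.

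Stretches before the transcription start are shown for the 3 genes with the largest rises in AKTmyr and for EGLN1, the paralog of EGLN3 that was not called, to show where the HIF core motif lies in them. They are the 250 bases before the first start that RefSeq lists for each gene (GRCh38.p14), 5′ to 3′ on the gene's strand, and capitals mark ACGTG or GCGTG or their reverse complements CACGT and CACGC (both strands searched, and a CACGTG would count on both).
EGLN3, chr14:33951075-33951324, minus strand: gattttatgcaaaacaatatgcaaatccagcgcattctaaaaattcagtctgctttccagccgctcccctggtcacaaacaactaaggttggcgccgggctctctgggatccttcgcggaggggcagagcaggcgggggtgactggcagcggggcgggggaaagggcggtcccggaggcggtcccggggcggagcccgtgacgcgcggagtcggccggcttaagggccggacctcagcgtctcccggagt
CA9, chr9:35673678-35673927, plus strand: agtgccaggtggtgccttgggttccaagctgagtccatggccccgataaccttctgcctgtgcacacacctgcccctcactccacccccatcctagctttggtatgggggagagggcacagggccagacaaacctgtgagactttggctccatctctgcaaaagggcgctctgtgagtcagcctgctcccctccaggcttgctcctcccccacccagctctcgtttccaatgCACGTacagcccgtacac
CA12, chr15:63381847-63382096, minus strand: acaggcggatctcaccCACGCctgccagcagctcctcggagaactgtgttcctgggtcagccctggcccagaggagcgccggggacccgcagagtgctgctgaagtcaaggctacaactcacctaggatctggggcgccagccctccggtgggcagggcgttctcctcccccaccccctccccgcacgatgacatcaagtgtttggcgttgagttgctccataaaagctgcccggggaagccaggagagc
EGLN1, chr1:231422288-231422537, minus strand: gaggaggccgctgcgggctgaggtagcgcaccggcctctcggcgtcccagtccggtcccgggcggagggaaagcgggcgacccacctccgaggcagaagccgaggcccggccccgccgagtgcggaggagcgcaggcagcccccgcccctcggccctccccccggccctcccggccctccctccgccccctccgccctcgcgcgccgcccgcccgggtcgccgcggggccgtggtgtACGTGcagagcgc
The motif began 18 bases before the start in CA9, 234 bases before it in CA12 and 13 bases before it in EGLN1, and these letters are not in the EGLN3 stretch. RefSeq promoters of 300 bases (250 before and 50 after a start) matched 34 of the 39 genes, and 31 of the 34 (91.2%) held the motif in at least 1 listed promoter, against 7577 of 10900 (69.5%) of all tested genes with a promoter. Counted per promoter, 42 of 62 (67.7%) held it, against 17012 of 35116 (48.4%) of all promoters in the table. That last set is not limited to the genes tested, so it is not like for like with the 39. P4HA2 and PGAM1, which rose in AKTmyr, had no match in any listed promoter either.

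Secreted targets, mitophagy receptors and the remaining hypoxia targets were all higher in AKTmyr. VEGFA, the angiogenic growth factor, had 925, 502 and 466 CPM in AKTmyr and 330, 103 and 97.4 CPM in T53D4, without overlap (log2 2.00, SE 0.30, edgeR adjusted p = 0.000443). ADM, which encodes adrenomedullin, a vasodilator peptide, had 79.2, 65.8 and 79.6 CPM in AKTmyr and 40.7, 19.9 and 31.3 CPM in T53D4 (log2 1.38, SE 0.20, edgeR adjusted p = 0.000427). BNIP3 and BNIP3L, receptors that mark mitochondria for autophagy, rose by log2 1.01 and 0.72, both with libraries that overlapped T53D4. NDRG1, a stress-responsive gene, had 530, 422 and 595 CPM in AKTmyr and 183, 88.4 and 190 CPM in T53D4 (log2 1.81, SE 0.30, edgeR adjusted p = 0.000886). P4HA1 and P4HA2, the catalytic subunits of collagen prolyl hydroxylase, rose by log2 1.58 and 1.54, with 380, 224 and 288 CPM of P4HA1 in AKTmyr and 137, 61.7 and 108 CPM in T53D4. ANKRD37 and KDM3A, a histone demethylase, rose by log2 0.70 and 0.31, the smaller rises of this set.

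**Figure D3:**
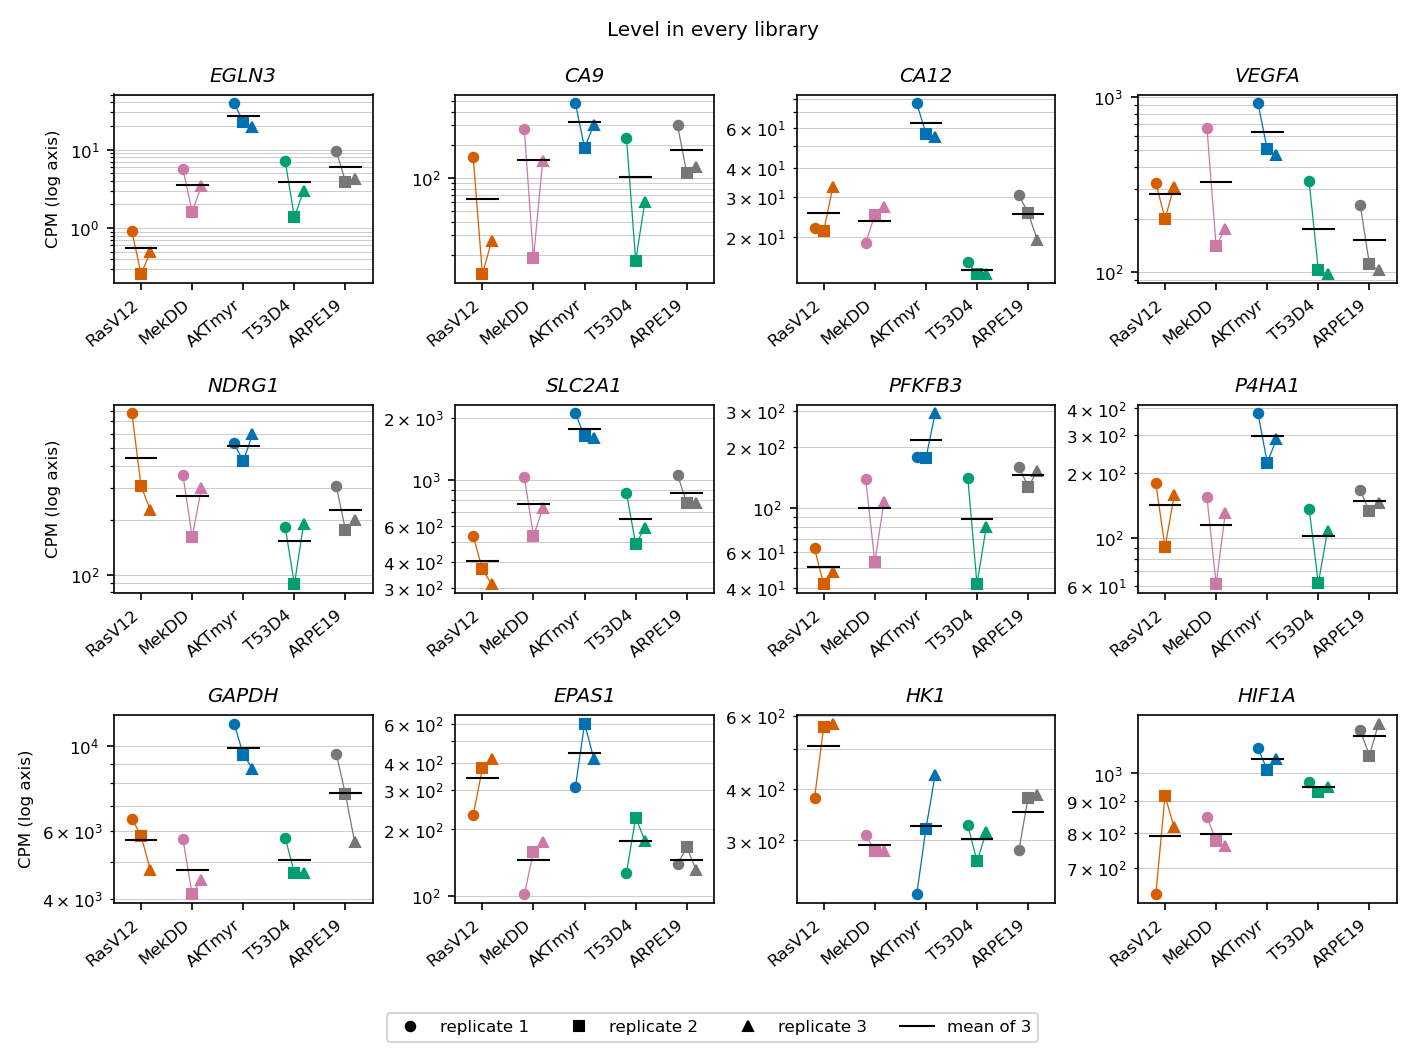
CPM of 12 genes in every library (log axes), with lines from RasV12 on the left to ARPE19 on the right, symbols by replicate number joined within a line, and bars at the mean of 3. EGLN3 spans the widest range, from 0.26 CPM in RasV12 replicate 2 to 39.2 CPM in AKTmyr replicate 1, and HIF1A stays between 634 and 1207 CPM.

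Genes of the same pathways outside the 39 gave the following counts in AKTmyr over T53D4. Over all genes tested, 16.9% were called higher and 17.9% lower in this comparison. Of 30 other hypoxia targets, 22 were higher and 0 lower with a median of log2 0.77, among them DDIT4, an inhibitor of mTOR signalling, at 1020 ± 77.9 CPM in AKTmyr and 249 ± 133 CPM in T53D4 (SD, n = 3 each), and HMOX1, heme oxygenase, at 114 ± 43.4 and 31 ± 7.13 CPM. Of 11 genes of gluconeogenesis and glycogen, 5 were higher and 0 lower. PPP1R3C, which targets a phosphatase to glycogen, stood at 143 ± 26.6 CPM in AKTmyr and 19.8 ± 2.22 CPM in T53D4 (log2 2.85, SE 0.15, edgeR adjusted p = 5.4e-07), and the glycogen enzymes GBE1 and GYS1 rose by log2 1.04 and 0.84. Among 11 other glucose and monocarboxylate transporters 5 were higher and 0 lower, led by SLC2A12 at log2 1.98, and among 15 other glycolysis genes 4 were higher and 0 lower, led by BPGM at 1.06 and PGM1 at 0.91. Pentose phosphate genes were mixed, with 2 higher and 4 lower of 10. TKT, transketolase, stood at 1289 ± 184 CPM in AKTmyr and 692 ± 127 CPM in T53D4 (SD, n = 3 each), and RPIA, PRPS2 and PGLS were among those lower. Of 12 genes of pyruvate dehydrogenase and its kinases, 3 were higher, including PDK3 at log2 1.49, and 2 lower. Of 15 HIF partners and regulators, RBX1 was higher by log2 0.25, CITED2 lower by 0.54, and 13 were not called. Retinal pigment epithelium markers gave 3 higher and 2 lower of 13 tested, and markers of other cell types 1 higher (ACTC1) and 0 lower of 5.

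RasV12 against T53D4 gave a split picture: 7 of the 39 genes were higher and 6 lower, where 16.6% of all genes were called higher and 19.2% lower, shares close to those of the 39. NDRG1, EPAS1, VEGFA, CA12, HK1, P4HA1 and ENO2 rose, whereas EGLN3, PFKP, SLC2A1, SLC16A1, PFKL and EGLN1 fell. The median log2 fold change was -0.02 over the 39 genes and 0.01 over all genes. Without the replicate number in the model 4 were higher and 2 lower, where 24.4% of all genes were called either way. Leaving out RasV12 replicate 2, RasV12 replicate 3 or T53D4 replicate 3 left 8 called in each case, where 3690, 4827 and 3820 of all genes were called. Leaving out replicate 2 of every line left 1 higher and 3 lower, where 866 of all genes were higher and 1093 lower. Of 5 markers of other cell types tested, 1 was higher in RasV12 and 2 were lower. The higher one was CD68, which led in every line, at 314 ± 30.3 CPM against 142 ± 51.5 CPM in T53D4 (SD, n = 3 each, log2 1.19). All others stayed under 1 CPM in both lines. The part of these markers in the result was not tested.

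EGLN3 had the largest fall, by 2.70 on the log2 scale (SE 0.34, edgeR F-test, BH-adjusted p = 7.3e-05). Its same-number differences were -2.98, -2.39 and -2.60. SLC2A1 fell by 0.66 (SE 0.13, edgeR adjusted p = 0.00202). PFKP, the platelet-type phosphofructokinase, had 442, 353 and 267 CPM in RasV12 and 774, 561 and 637 CPM in T53D4 with no overlap, and fell by 0.91 (SE 0.13, edgeR adjusted p = 0.000193). PFKL, the liver-type enzyme, had 372, 260 and 303 CPM in RasV12 and 536, 314 and 398 CPM in T53D4, which overlapped, and fell by 0.40. SLC16A1 had 190, 125 and 147 CPM in RasV12 and 281, 150 and 195 CPM in T53D4 and fell by 0.42. EGLN1 had 32.2, 19 and 22.3 CPM in RasV12 and 43.1, 21.7 and 32.9 CPM in T53D4 and fell by 0.39. PFKL, SLC16A1 and EGLN1 were each lower in RasV12 in all 3 pairs but lost the call in at least 4 of 6 fits with 1 library left out.

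Among the rises, EPAS1 was steady, with 232, 377 and 416 CPM in RasV12 and 128, 226 and 178 CPM in T53D4, no overlap, and a rise of log2 0.94 (SE 0.17, edgeR adjusted p = 0.000897). NDRG1 had 777, 308 and 227 CPM in RasV12 and 183, 88.4 and 190 CPM in T53D4, and its same-number differences of 2.08, 1.80 and 0.25 were larger in numbers 1 and 2, for a fitted rise of 1.45 (SE 0.30, edgeR adjusted p = 0.00249). HK1 had 380, 565 and 576 CPM in RasV12 and 327, 267 and 314 CPM in T53D4, without overlap (log2 0.72, SE 0.19, edgeR adjusted p = 0.0106). CA12 had 22, 21.3 and 33.1 CPM in RasV12 and 15.5, 13.8 and 13.8 CPM in T53D4, also without overlap (log2 0.82, SE 0.22, edgeR adjusted p = 0.0108). VEGFA had 323, 202 and 308 CPM in RasV12 and 330, 103 and 97.4 CPM in T53D4, so number 1 showed no difference (-0.03) while numbers 2 and 3 differed by 0.97 and 1.66 (fitted log2 0.92, SE 0.29, edgeR adjusted p = 0.0265, and 0.483 without the replicate number). P4HA1 and ENO2 rose by log2 0.49 and 0.48, both with overlapping libraries. Of 6 fits with 1 library left out, P4HA1 was called in 1 (edgeR adjusted p up to 0.144), VEGFA in 2 (up to 0.132), HK1 in 3 (up to 0.0633), CA12 in 5 (up to 0.0505) and ENO2, NDRG1 and EPAS1 in all 6. Of 30 other hypoxia targets 4 were higher, led by ANGPTL4 at 78.8 ± 8.21 CPM in RasV12 and 7.42 ± 12.3 CPM in T53D4 (SD, n = 3 each), and 8 lower, among them TMEM45A, PPFIA4 and IGFBP3. HMOX1, higher in AKTmyr too, was among the 4, at 135 ± 39.7 CPM in RasV12 and 31 ± 7.13 CPM in T53D4 (SD, n = 3 each). Glycogen and gluconeogenesis genes gave 3 higher and 5 lower of 11, and HIF partners and regulators 4 and 5 of 15, with CITED2, a competitor of HIF for p300, at 176 ± 26.8 CPM in RasV12 and 458 ± 49 CPM in T53D4. Other glycolysis genes gave 2 and 4 of 15, transporters 2 and 2 of 11, pyruvate dehydrogenase genes 2 and 3 of 12, and pentose phosphate genes 0 and 1 of 10. Retinal pigment epithelium markers gave 1 higher and 5 lower of 13 tested, the lower ones including MITF (-1.72), PMEL (-1.54) and KRT18 (-1.11). Over all genes 16.6% were called higher and 19.2% lower.

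The genes PFKP and PFKFB3 lie on chromosome 10 before its gene-free middle stretch (38360099 to 42574184, hg38), and HK1, PGAM1, BNIP3 and P4HA1 after it. In RasV12 over T53D4 the 102 genes before the stretch had a median log2 fold change of -0.33 and the 329 genes after it a median of 0.31. The same medians were 0.07 and 0.01 in MekDD over T53D4 and 0.01 and -0.01 in AKTmyr over T53D4. The fall of PFKP and the rises of HK1 and P4HA1 in RasV12 had the sign of the median on their side. PFKFB3 (-0.68), PGAM1 (0.07) and BNIP3 (-0.13) were not called, and BNIP3 had the opposite sign to its side's median. The part of the chromosome's sides in these values was not tested.

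MekDD against T53D4 called 1 of the 39 genes, ANKRD37, which was higher, where 5.49% of all genes were higher and 6.2% lower. ANKRD37, an ankyrin repeat gene induced by HIF, had 4.58, 3.23 and 4.48 CPM in MekDD and 2.64, 1.76 and 3 CPM in T53D4, without overlap. It rose by log2 0.75 (SE 0.20, edgeR F-test, BH-adjusted p = 0.0318), and 40.3% of its exon bases are shared with UFSP2 on the other strand. No gene of the 39 was called without the replicate number, where 5.1% of all genes were. DESeq2 with the number called 4, all higher, where it called 944 of all genes higher and 1121 lower. CA12 (log2 0.72, SE 0.22, edgeR adjusted p = 0.0502), VEGFA (0.81, SE 0.29, adjusted p = 0.0921) and NDRG1 (0.80, SE 0.29, adjusted p = 0.0988) came next. EGLN3 had a log2 difference of -0.01 (SE 0.28). The ANKRD37 call held in 1 of 6 fits with 1 library left out, the one without MekDD replicate 3 (edgeR adjusted p = 0.0483), and was lost without each of the other 5 (edgeR adjusted p of up to 0.126). Of the other lists, 1 of 30 hypoxia targets was higher (RORA, log2 1.22) and 2 lower (IGFBP3, -1.20, and TFRC, -0.67). Other glycolysis genes gave 0 higher and 1 lower of 15, transporters 1 and 1 of 11, pyruvate dehydrogenase genes 2 and 0 of 12, pentose phosphate genes 0 and 1 of 10, glycogen and gluconeogenesis genes 1 and 0 of 11, and HIF partners 0 and 0 of 15.

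**Figure D4:**
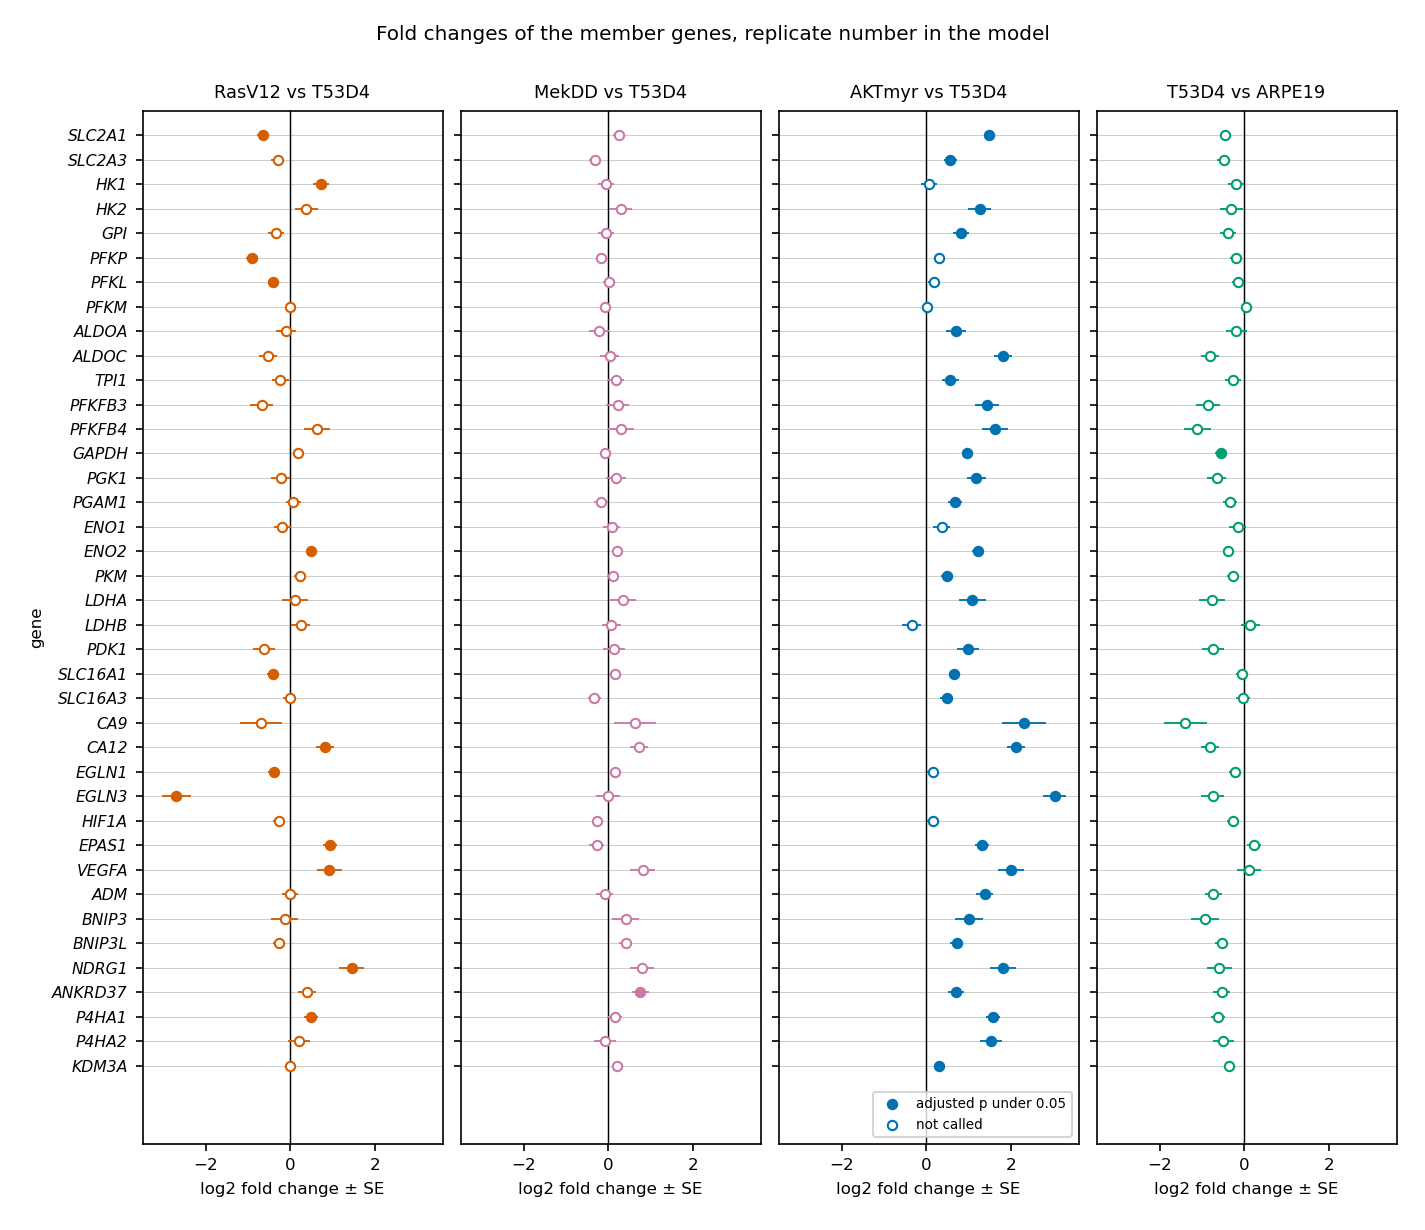
Log2 fold change of each of the 39 genes with its SE, in the model with line and replicate number, for RasV12, MekDD and AKTmyr over T53D4 and T53D4 over ARPE19. Filled points have an adjusted p under 0.05. The AKTmyr panel has 31 filled points, all right of 0, the RasV12 panel 13 on both sides, and the other panels 1 each.

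T53D4 against ARPE19 called 1 of the 39 genes, GAPDH, which was lower, where 0.743% of all genes were higher and 0.963% lower. GAPDH had 5768, 4685 and 4679 CPM in T53D4 and 9580, 7489 and 5628 CPM in ARPE19, overlapping by 1 library, and fell by 0.56 on the log2 scale (SE 0.13, edgeR F-test, BH-adjusted p = 0.0459, and 0.347 without the replicate number). Most of the others had negative values: 35 of 39, with a median of -0.39 against 0.00 over all genes. Without the number 0 of the 39 were called, where 0.154% of all genes were. DESeq2 with the number called 13, all lower, where it called 380 of all genes higher and 474 lower. Leaving out any library of T53D4, or ARPE19 replicate 1 or 2, left 0 called, where 13 to 26 of all genes were called. Leaving out ARPE19 replicate 3 gave 3, where 238 of all genes were called. CA9 had a log2 difference of -1.40 (SE 0.51, edgeR adjusted p = 0.162) and PFKFB4 one of -1.11 (SE 0.31, edgeR adjusted p = 0.0879). The median difference was -0.21, -0.74 and -0.27 within numbers 1, 2 and 3. Of 30 other hypoxia targets 2 were lower, PLOD2 (-0.88) and RORA (-0.87), and 0 higher. Glycogen and gluconeogenesis genes gave 1 higher (PCK2, log2 1.66) and 1 lower (PPP1R3C, -0.95) of 11, pyruvate dehydrogenase genes 0 and 1 of 12, and the other glycolysis, transporter, pentose phosphate and HIF partner lists 0 either way.

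RasV12 against AKTmyr set the 2 lines labelled transformed side by side, and 32 of the 39 genes were lower in RasV12 and 2 higher, where 26.4% of all genes were lower and 26.3% higher. EGLN3, CA9, ALDOC, SLC2A1, PFKFB3 and PDK1 were furthest below AKTmyr, and HK1 and LDHB were above it. EGLN3 fell by 5.74 (SE 0.33, edgeR F-test, BH-adjusted p = 1.22e-07), which is the widest difference among the 39 in the 7 comparisons made. CA9 had 155, 13.4 and 26.6 CPM in RasV12 and 480, 187 and 306 CPM in AKTmyr and fell by 3.00 (SE 0.54, edgeR adjusted p = 0.000584). SLC2A1 fell by 2.16 (SE 0.14, edgeR adjusted p = 2.36e-07), ALDOC by 2.34, PFKFB3 by 2.10 and PDK1 by 1.62, each with no overlap. HK1 was higher by log2 0.66 (SE 0.19, edgeR adjusted p = 0.0112), with libraries that overlapped. LDHB had 31.9, 31.9 and 35 CPM in RasV12 and 13.9, 20.1 and 37.6 CPM in AKTmyr, and its 0.60 (SE 0.23, edgeR adjusted p = 0.0431) was not shared by number 3, at -0.11.

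The median over the 39 genes was -0.88, against 0.01 over all genes. EPAS1 (-0.37, SE 0.17, edgeR adjusted p = 0.0814), NDRG1 (-0.36, SE 0.29, edgeR adjusted p = 0.32), ANKRD37, PKM and PFKM were the 5 not called, so the difference in EPAS1 and NDRG1 between the lines that both raised them over T53D4 did not pass the test. Without the replicate number 20 were lower and 1 higher, where 40.4% of all genes were called either way, and without replicate 2 of every line 22 were called, all lower, where 2007 of all genes were lower and 1717 higher. Of 5 markers of other cell types tested, CD68 was higher in RasV12 here too (log2 1.25) and 3 were lower, among them ACTC1 (-5.39). Retinal pigment epithelium markers gave 1 higher and 6 lower of 13 tested, where 26.3% of all genes were higher and 26.4% lower. Of the 30 other hypoxia targets 24 were lower in RasV12 and 1 higher, ANGPTL4, at 78.8 ± 8.21 CPM in RasV12 and 5.21 ± 2.77 CPM in AKTmyr (SD, n = 3 each).

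MekDD against AKTmyr called 27 of the 39 genes lower in MekDD and 0 higher, where 20% of all genes were lower and 20.3% higher. EGLN3, ALDOC, CA9, P4HA2, EPAS1 and ADM were furthest below. EGLN3 fell by 3.05 (SE 0.27, edgeR F-test, BH-adjusted p = 8.08e-06). EPAS1 had 102, 159 and 176 CPM in MekDD and 311, 600 and 417 CPM in AKTmyr and fell by 1.59 (SE 0.17, edgeR adjusted p = 3e-05). P4HA2 had 92.4, 41 and 53 CPM in MekDD and 239, 162 and 148 CPM in AKTmyr and fell by 1.61 (SE 0.26, edgeR adjusted p = 0.000509). ADM had 49.1, 15.9 and 25.7 CPM in MekDD and 79.2, 65.8 and 79.6 CPM in AKTmyr and fell by 1.47. None of these 3 overlapped between the lines. CA9 overlapped, at 276, 18.7 and 143 CPM in MekDD. HIF1A was lower in MekDD by 0.41 (SE 0.13, edgeR adjusted p = 0.0229), with 849, 776 and 760 CPM in MekDD and 1099, 1014 and 1055 CPM in AKTmyr. Without the replicate number 14 were called, all lower, where 26.2% of all genes were called either way, and without replicate 2 of every line 11 were, all lower, where 878 of all genes were lower and 851 higher.

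RasV12 against MekDD called 9 of the 39 genes lower in RasV12 and 2 higher, where 13.9% of all genes were lower and 12.5% higher. EPAS1 and HK1 were higher, by log2 1.22 (SE 0.17, edgeR F-test, BH-adjusted p = 0.000234) and 0.77 (SE 0.19, edgeR adjusted p = 0.00999). HK1 had 380, 565 and 576 CPM in RasV12 and 310, 283 and 283 CPM in MekDD, and EPAS1 had 232, 377 and 416 CPM in RasV12 and 102, 159 and 176 CPM in MekDD, both without overlap. EGLN3 fell by 2.69 (SE 0.34, edgeR adjusted p = 0.000128), with same-number differences of -2.63, -2.62 and -2.81. SLC2A1, PFKFB3, PDK1, PFKP and BNIP3L fell by 0.91, 0.90, 0.77, 0.73 and 0.68, and SLC16A1, EGLN1 and PFKL by 0.57, 0.55 and 0.41. BNIP3L had 293, 161 and 205 CPM in RasV12 and 507, 215 and 356 CPM in MekDD, which overlapped. Without the replicate number 2 were higher and 3 lower, where 15.5% of all genes were called either way. Without MekDD replicate 3, 7 were called, where 2480 of all genes were, and without replicate 3 of every line 5, where 2321 were. Of 5 markers of other cell types tested, CD68 was higher in RasV12 than in MekDD (log2 0.98) and 2 were lower. Retinal pigment epithelium markers gave 0 higher and 5 lower of 13 tested.

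Shares within pairs of related genes, taken per kilobase of exon, differed most between lines for EGLN3. EGLN3 made up 1.54% ± 0.522 of EGLN3 plus EGLN1 in RasV12 libraries, 6.37% ± 1.91 in MekDD libraries and 35.5% ± 8.1 in AKTmyr libraries, against 7.18% ± 3.33 in T53D4 libraries and 9.97% ± 3.42 in ARPE19 libraries (SD, n = 3 each). With the longest transcript as the length it was 53.1% ± 8.75 in AKTmyr and 13.7% ± 5.91 in T53D4, so the size of the share depends on the length and the order of the 2 lines does not. EGLN1 shares 55.8% of its exon bases with another gene on its strand, so its count and the size of the EGLN3 share are uncertain. EPAS1 made up 23.1% ± 3.03 of EPAS1 plus HIF1A in RasV12, 11.5% ± 3.28 in MekDD and 22.7% ± 6.45 in AKTmyr, against 11.6% ± 3.03 in T53D4. PFKFB4 made up 38.2% ± 4.69 of PFKFB4 plus PFKFB3 in RasV12 and 22.6% ± 3.48 in AKTmyr, against 20% ± 2.78 in T53D4. The log2 ratio of PFKFB4 to PFKFB3 in RasV12 over T53D4 was 1.32, 1.63 and 0.96 within numbers 1, 2 and 3, all above 0, although neither gene alone was called. The shares are given as a description and were not tested.

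**Figure D5:**
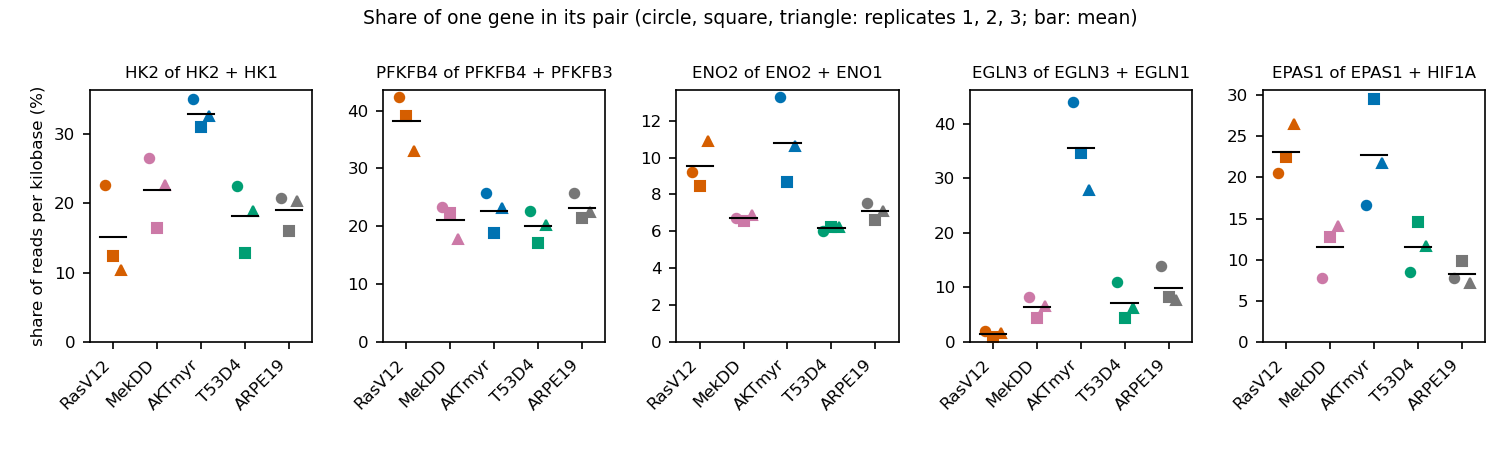
Share of 1 gene in the summed reads per kilobase of its pair, in percent, in each of 15 libraries, with bars at the mean of 3. The AKTmyr libraries are highest for HK2 and EGLN3, RasV12 is highest for PFKFB4, and RasV12 and AKTmyr lie above the other lines for EPAS1 and ENO2.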

How the data were processed

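The authors deposited raw read counts per gene for the 15 libraries. fastp 0.20.0, HISAT2 2.1.0, SAMtools 1.9, featureCounts 1.6.4, deepTools 3.2.0 and DESeq2 1.28.1 and the build hg38 are named in the submitters' processing notes, which as used here do not say whether counting used strand or how multiply mapped reads were treated. The deposited size-factor-scaled and log-scale tables were not used. Gene positions and exon lengths come from the authors' deposited annotation.

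The 7 construct rows were left out. Counts were scaled by TMM, genes were kept by filterByExpr (minimum count 10), and edgeR 4.0.16 (R 4.3.3) quasi-likelihood models with line and replicate number were fitted to all 15 libraries, with Benjamini-Hochberg adjustment over 13599 genes and a threshold of 0.05. A fold change is the first line over the second, and its SE is its size over the square root of F. Pairing by number was checked from the correlation of same-numbered libraries' deviations from their line means: it was over 0.1 in every pair of every comparison except RasV12 against AKTmyr, where number 3 gave 0. Each number is a thawed vial per line, and each construct is 1 line. The p-values cover only the spread between vials that is left after the replicate number is fitted, estimated over all 15 libraries. They do not cover the spread between lines made with the same construct. On counts simulated for RasV12 against T53D4 the model recovered 200 of 200 changed genes, whose changes had a median size of log2 1.587, larger than 12 of the 13 called among the 39, with 8 false calls among 13408 genes. The simulated counts had the same spread for every gene and no effect of the replicate number, so they were simpler than the measured ones. Recovery and false calls on the measured counts, where 30.5% of all genes differed between replicate numbers, were not tested. DESeq2 1.42.0 was an alternative.

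The 39 genes and the 10 pathway and marker lists (157 genes) were chosen with earlier results of these data known. Values per library are given for up to 6 called genes in each direction per comparison, by size of change, and for others as examples chosen after their values were seen. From each pathway list up to 3 called genes in each direction with at least 5 CPM in the higher line could be named.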

Additional observations from a re-analysis of the deposited data

Results flagged for a closer look

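In 3 of the 39 genes RasV12 and AKTmyr were called in opposite directions against the T53D4 libraries that both comparisons share. In RasV12 over AKTmyr, EGLN3 differed by -5.74 on the log2 scale, SLC2A1 by -2.16 and SLC16A1 by -1.08. Opposite calls against the same libraries already fix the direction of these differences, so they are given as a description. Against T53D4, the fall of SLC16A1 in RasV12 was called in 2 of 6 fits with 1 library left out, and without the replicate number neither SLC16A1 (edgeR adjusted p = 0.245) nor SLC2A1 (edgeR adjusted p = 0.0945) was called.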

How the results depend on the processing

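With no replicate block the members called were 0 (T53D4 over ARPE19), 6 (RasV12 over T53D4), 0 (MekDD over T53D4), 17 (AKTmyr over T53D4), 5 (RasV12 over MekDD), 21 (RasV12 over AKTmyr) and 14 (MekDD over AKTmyr). Over all genes it gave 21, 3313, 694, 2738, 2108, 5490 and 3560 in the same order, against 232, 4866, 1589, 4738, 3588, 7163 and 5481 with the block. DESeq2 called 13 of the 39 and 854 of all genes in T53D4 over ARPE19, and 4 of the 39 and 2065 of all genes in MekDD over T53D4. With no filter on low counts those comparisons called 0 and 2 of the 39, and 192 and 1532 of all genes. Library size alone called 2 of the 39 and 1569 of all genes in MekDD over T53D4. Fits to 2 lines only called 2 of the 39, neither of them GAPDH, and 237 of all genes in T53D4 over ARPE19. In MekDD over T53D4 they called 7 and 2440, and in MekDD over AKTmyr 3004 of all genes. Leaving out a library, or 1 number of every line (added after seeing the data), gave 0 to 3 of the 39 (1 to 238 of all genes) in T53D4 over ARPE19, 4 to 11 (1959 to 4827) in RasV12 over T53D4, 0 to 2 (183 to 1544) in MekDD over T53D4, 15 to 30 (1637 to 4506) in AKTmyr over T53D4, 5 to 13 (1037 to 3445) in RasV12 over MekDD, 22 to 32 (3724 to 7276) in RasV12 over AKTmyr and 11 to 30 (1729 to 5394) in MekDD over AKTmyr. Within those ranges, leaving out replicate 1 of every line gave 1 of the 39, not GAPDH, and 80 of all genes in T53D4 over ARPE19. In MekDD over T53D4 it gave 986 of all genes. Leaving out replicate 3 of every line gave 8 of the 39 (4221 of all genes) in RasV12 over T53D4 and 2321 of all genes in RasV12 over MekDD. Leaving out RasV12 replicate 2 gave 8 of the 39 (3690 of all genes) in RasV12 over T53D4. Without MekDD replicate 2, 730 of all genes were called in MekDD over T53D4, and without AKTmyr replicate 1, 3061 in AKTmyr over T53D4. The causes were not tested. No called value of the 39 changed sign under any alternative run. EGLN3 in RasV12, under 1 CPM, is the value most limited by depth.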
